A study of Mus musculus with 5 samples.

Results

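The genes described here are 44 genes of the cell division cycle, taken by their symbols from a deposited table of 21289 genes and arranged by the phase in which they act. They are 16 genes of the G1/S transition and DNA replication, 4 enzymes of nucleotide supply in S phase and 24 genes of G2 and mitosis. The cells were CD45+CD64+ cells sorted from hearts of male C57BL/6JGpt mice, labelled wild type, on day 7 after myocardial infarction. The gate takes leukocytes (CD45) that carry CD64, an Fc receptor found mainly on macrophages and monocytes. Of 5 samples, 2 came from infarcted mice without curcumol (untreated replicates 1 and 2). The other 3 came from infarcted mice given curcumol, a sesquiterpene of Curcuma, at 30 mg/kg by gavage once a day for 7 days (curcumol replicates 1, 2 and 3). No group without infarction was analysed here, the labels give neither the age of the mice nor a vehicle for the untreated group, and they do not say whether a sample held 1 animal or a pool.

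A dividing cell first licenses its replication origins by loading the MCM helicase with Cdc6 and Cdt1, and then copies its DNA behind the sliding clamp PCNA. E2F factors switch on most of these genes at the G1/S transition. The mitotic genes follow in G2 and are switched on later, through CCAAT boxes and an element called the cell cycle genes homology region (CHR), which the DREAM and MuvB complexes bind. In the infarcted heart, local division adds to the macrophages that arise from recruited monocytes. In bulk RNA, fewer dividing cells and less transcript per dividing cell cannot be told apart.

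The promoters of the listed genes were searched for the letters of these elements. RefSeq windows (GRCm38.p6, from 250 bases before to 50 bases after the start) were found for 36 of the 44 genes, in 40 windows. An E2F motif, spelled TTTCCCGC, TTTCGCGC, TTTGCCGC or TTTGGCGC on either strand, stood in 7 of 16 windows of G1/S genes (43.8%) and in 1 of 20 windows of G2/M genes, against 2.26% of all 32851 windows. A CHR motif, TTTGAA or TTCGAA on either strand, stood in 16 of 20 G2/M windows (80.0%) and 3 of 16 G1/S windows, against 19.2% of all windows. A CCAAT motif on either strand was in 18 of the 20 G2/M windows and 9 of the 16 G1/S windows, against 37.4% of all. None of the 4 windows of nucleotide enzymes held the E2F or CHR letters, and different motifs shared bases in 1 of the 40 windows. These matches describe the letters only and are not binding sites.

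The windows printed here, 5′ to 3′ in the direction of transcription, are those of the 4 members that one count model (DESeq2) placed past its threshold, Pcna, Cdt1, Birc5 and Aurka, and of Mcm6 and Ccnb2, which were chosen after the search as examples of the G1/S and the G2/M pattern. Capitals mark the E2F, CHR and CCAAT letters defined above. The windows lie at chr1:128359656-128359955 (minus strand) for Mcm6, chr8:122567765-122568064 (plus strand) for Cdt1, chr2:132253131-132253430 (minus strand) for Pcna, chr9:70421505-70421804 (minus strand) for Ccnb2, chr2:172370521-172370820 (minus strand) for Aurka and chr11:117848987-117849286 (plus strand) for Birc5.
Mcm6: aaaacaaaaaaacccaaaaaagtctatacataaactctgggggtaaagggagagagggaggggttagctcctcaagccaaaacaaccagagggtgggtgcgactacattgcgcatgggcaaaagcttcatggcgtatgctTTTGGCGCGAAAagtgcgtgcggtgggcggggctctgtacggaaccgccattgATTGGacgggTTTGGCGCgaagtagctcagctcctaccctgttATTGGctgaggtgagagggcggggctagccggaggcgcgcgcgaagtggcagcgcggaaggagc
Cdt1: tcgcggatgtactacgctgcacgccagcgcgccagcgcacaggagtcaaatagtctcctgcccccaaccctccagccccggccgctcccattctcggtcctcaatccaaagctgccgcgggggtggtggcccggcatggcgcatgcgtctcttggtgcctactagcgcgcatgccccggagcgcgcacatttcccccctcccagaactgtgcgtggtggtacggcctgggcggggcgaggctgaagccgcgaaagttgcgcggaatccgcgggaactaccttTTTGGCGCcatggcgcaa
Pcna: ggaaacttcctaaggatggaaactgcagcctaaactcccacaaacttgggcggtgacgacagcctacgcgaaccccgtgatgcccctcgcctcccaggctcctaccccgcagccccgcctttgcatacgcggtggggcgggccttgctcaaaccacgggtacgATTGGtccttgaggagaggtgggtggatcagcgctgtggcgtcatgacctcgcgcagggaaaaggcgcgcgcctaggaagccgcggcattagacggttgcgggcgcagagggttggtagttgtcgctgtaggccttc
Ccnb2: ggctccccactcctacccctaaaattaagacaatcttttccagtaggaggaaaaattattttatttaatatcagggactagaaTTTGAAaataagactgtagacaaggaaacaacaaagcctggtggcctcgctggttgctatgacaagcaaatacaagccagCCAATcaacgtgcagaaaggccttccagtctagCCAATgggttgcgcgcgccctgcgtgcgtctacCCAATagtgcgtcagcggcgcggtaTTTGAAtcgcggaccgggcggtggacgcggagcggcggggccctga
Aurka: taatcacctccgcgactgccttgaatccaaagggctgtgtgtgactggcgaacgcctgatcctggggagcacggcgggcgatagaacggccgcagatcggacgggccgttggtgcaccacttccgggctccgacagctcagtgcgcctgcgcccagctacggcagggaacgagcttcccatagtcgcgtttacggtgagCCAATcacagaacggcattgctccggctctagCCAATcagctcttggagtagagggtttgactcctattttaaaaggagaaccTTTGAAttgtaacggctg
Birc5: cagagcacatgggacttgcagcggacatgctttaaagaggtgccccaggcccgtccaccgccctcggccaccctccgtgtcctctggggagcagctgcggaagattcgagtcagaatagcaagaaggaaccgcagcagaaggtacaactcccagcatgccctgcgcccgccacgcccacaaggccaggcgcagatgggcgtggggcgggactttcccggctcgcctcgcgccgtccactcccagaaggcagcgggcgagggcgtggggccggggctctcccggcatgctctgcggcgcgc
In this window Mcm6 has 3 E2F matches and 2 CCAAT matches, and Cdt1 has 1 E2F match. Of the Mcm6 E2F matches 2 lie on opposite strands and share bases within 1 marked stretch. Ccnb2 has 2 CHR matches and 3 CCAAT matches, and Aurka has 1 CHR match and 2 CCAAT matches. Pcna has 1 CCAAT match, and the Birc5 window holds none of these letters.

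Libraries held 39768705 to 43315822 counts, with 12243 and 12915 genes detected in the untreated libraries and 17078 to 18501 in the curcumol libraries. Macrophage gate genes summed to 38848 and 38873 CPM (counts scaled to the normalised size of each library) without curcumol and to 30606 to 36174 CPM with it, with all 10 of 10 genes detected in both groups. Most of each sum was Lyz2 (24995.5 and 26055 CPM without and 20527 to 24144 CPM with curcumol). In the fit 5 of the 10 genes were higher with curcumol and 5 lower. Markers of most other cell types were higher in the curcumol libraries. A list of 12 genes of neutrophils and their precursors summed to 305 and 347 CPM in the untreated libraries. In curcumol replicates 1, 2 and 3 it summed to 3457, 1459 and 2948 CPM. Most of each sum was S100a8 and S100a9, and Ly6g and Camp were at 0 in both untreated libraries. Of the 12 genes 9 were higher in every curcumol library than in both untreated ones, as were 29.5% of all tested genes. Elane, Mpo and Prtn3 overlapped between groups, with Prtn3 at 15.2 and 20.6 against 13.4 to 18.1 CPM. T and NK genes (11 found, Ncr1 at 0 without curcumol) summed to 54.0 and 78.6 CPM against 81.9 to 150 CPM, B cell genes (7 found, Pax5 and Cr2 at 0 without curcumol) to 36.5 and 58.0 CPM against 69.6 to 105 CPM. Fibroblast genes (10, Pdgfra and Lum at 0 without curcumol) summed to 33.3 and 39.7 against 133 to 342 CPM, and endothelial genes (9, with Cdh5, Tie1, Tek and Egfl7 at 0 without curcumol) to 28.6 and 33.5 against 62.5 to 109 CPM. Cardiomyocyte genes (8, Ttn and Ryr2 at 0 without curcumol) summed to 19.3 and 52.9 against 79.7 to 98.1 CPM, dendritic cell genes (8, Clec9a at 0) to 89.8 and 51.8 against 50.8 to 86.2 CPM, and erythroid genes (5, Klf1 and Alas2 at 0) to 30.6 and 67.6 against 10.9 to 22.3 CPM. Whether dividing cells of these types contributed to the levels below was not tested.

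No listed gene changed past the threshold. All 44 passed the filter on low counts, and edgeR's quasi-likelihood test put 0 of 44 under an adjusted p of 0.05, with 0.207% of 14508 tested genes under it (0.0689% higher and 0.138% lower with curcumol). Before adjustment 7 members had a p under 0.05, 6 with lower and 1 with higher curcumol levels (13.6% and 2.27% of members), where 6.51% of all tested genes were lower and 18.1% higher. DESeq2 placed 4 members past its adjusted threshold (Pcna, Cdt1 and Birc5 lower, Aurka higher), a share of 9.09% where it called 16.2% of all genes (11.5% higher and 4.63% lower). Limma-voom called 2, Pcna and Birc5, both lower, where it called 11.4% of all genes (9.72% higher and 1.73% lower). All these shares compare genes of unlike level. An untreated library listed 25.1% of all tested genes at 0, and none of the 44.

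**Figure D1:**
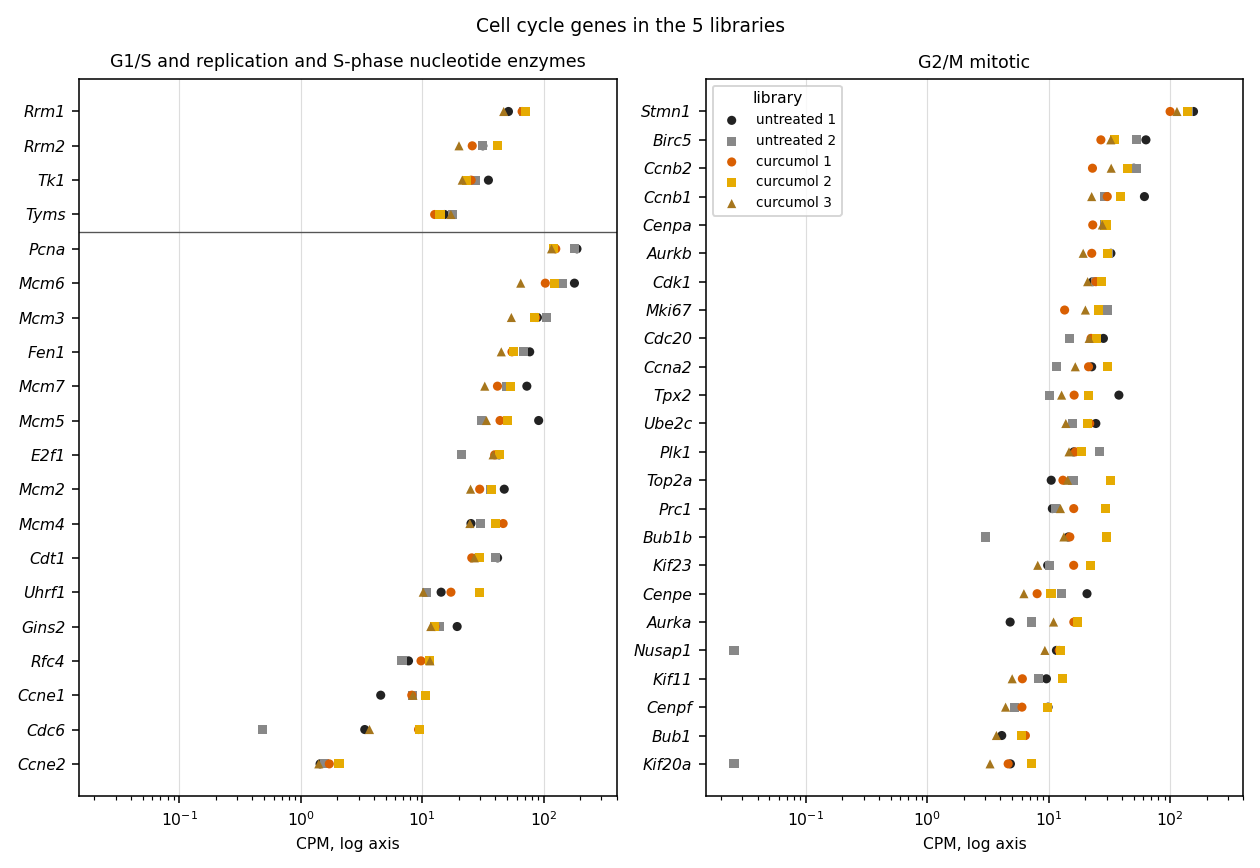
CPM of each listed gene (log axis) in the 2 untreated and 3 curcumol libraries, 1 point per library, with genes ordered by mean level within each phase. Pcna, Birc5 and Cdt1 show untreated points to the right of all curcumol points, Aurka shows the opposite, and Nusap1 and Kif20a show untreated replicate 2 at a single count.

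Among G1/S and replication genes, the log2 fold change (curcumol minus untreated) was below 0 for 9 of 16 and above it for 7, with a median of -0.40 beside 0.15 for all tested genes. Pcna, the sliding clamp of DNA polymerases (NCBI gene 18538), was measured at 189 and 181 CPM without curcumol, and at 126, 120 and 116 CPM with it. All 3 curcumol libraries lay below both untreated ones, and the spread within each group was narrow (185 ± 5.15 against 121 ± 4.94 CPM, mean ± SD, n = 2 and n = 3). Its log2 fold change of -0.61 ± 0.14 (SE, 95% interval -0.95 to -0.27) had an adjusted p of 0.0703 with edgeR and of 4.98e-05 with DESeq2. Fen1, the nuclease that trims Okazaki fragments, stood at 76.9 and 68.2 CPM against 54.97, 56.3 and 44.9 CPM (adjusted p = 0.179). Exons of a gene on the opposite strand cover 78.8% of the exonic bases of Fen1 in GENCODE M21, so its reads may be shared where counting ignored strand. That gene, Gm10143, is absent from the deposited table. Rfc4, a subunit of the clamp loader, stood at 7.73 and 6.83 CPM against 9.80, 11.5 and 11.6 CPM, higher without overlap (adjusted p = 0.436). Uhrf1, which reads hemimethylated DNA behind the fork, overlapped between groups, and its curcumol libraries alone spanned 10.2 to 29.8 CPM.

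Subunits of the MCM helicase, which unwinds DNA at the fork, were lower with curcumol in 5 of 6 cases, with Mcm4 as the exception. Mcm6 (NCBI gene 17219) reached 179.8 and 144 CPM without curcumol, and 103, 124 and 64.9 CPM with it. These values did not overlap, and the log2 fold change was -0.73 ± 0.29 (95% interval -1.42 to -0.038, adjusted p = 0.181). Mcm3 stood at 89.1 and 105 CPM against 86.1, 84.3 and 54.4 CPM, where curcumol replicates 1 and 2 lay just under the lower untreated library and replicate 3 well below it. Mcm7 overlapped, at 72.9 and 49.9 CPM against 41.8, 53.8 and 32.8 CPM (adjusted p = 0.317). Mcm2 overlapped as well (36.9 and 47.5 CPM against 25.1 to 37.5 CPM). For Mcm5 the untreated libraries themselves stood at 91.2 and 31.0 CPM, and the curcumol libraries lay between them at 33.9 to 50.6 CPM. Mcm4 was at 25.3 and 30.4 CPM without and 46.5, 40.3 and 24.7 CPM with curcumol, so curcumol replicate 3 lay below both untreated libraries. Summed over the 6 subunits the level was 506 and 397 CPM without and 351, 391 and 236 CPM with curcumol, so untreated replicate 2 and curcumol replicate 2 lay close together.

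Of the 3 genes of origin licensing and firing, 2 had lower and 1 had higher levels in every curcumol library, and none passed the test. Among all tested genes 14.9% were lower and 29.5% higher in this way, and 3 genes are too few to set against those shares. Cdt1, which loads the helicase (NCBI gene 67177), stood at 41.9 and 40.2 CPM without and 25.6, 29.8 and 26.9 CPM with curcumol, a log2 fold change of -0.58 ± 0.20 (95% interval -1.07 to -0.09, adjusted p = 0.139, and 0.0355 in DESeq2). Cdc6, its partner at origins, was a low transcript and higher with curcumol, at 3.37 and 0.486 CPM against 9.34, 9.54 and 3.69 CPM. Curcumol replicate 3 lay just above untreated replicate 1, and the untreated libraries differed 6.93-fold, so that the log2 fold change of 1.96 had an SE of 0.999 (adjusted p = 0.288). Gins2, part of the active helicase, stood at 19.4 and 13.8 CPM against 11.8 to 12.8 CPM. Its exons share 67.3% of their bases with exons of Gse1 on the opposite strand, so its counts are uncertain where counting ignored strand. The factors that start S phase had small positive differences: the cyclin genes Ccne1 and Ccne2 and E2f1, whose product drives G1/S transcription, had log2 fold changes of 0.49, 0.20 and 0.33, all overlapping between groups. E2f1 was at 43.1 and 21.2 CPM without curcumol and at 38.4 to 43.2 CPM with it, close to untreated replicate 1 and above replicate 2.

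Of the 4 nucleotide enzymes 3 had a negative and 1 a positive difference, with a median of -0.14. Rrm1 and Rrm2 encode the subunits of ribonucleotide reductase. Rrm1 stood at 51.4 and 68.6 CPM against 66.6, 70.7 and 47.0 CPM, a log2 fold change of 0.034 ± 0.25 with a 95% interval of -0.57 to 0.63. Rrm2 was at 31.6 and 31.3 CPM without curcumol and at 25.9, 41.5 and 20.1 CPM with curcumol, so the curcumol libraries lay on both sides of the untreated pair (-0.11 ± 0.34, 95% interval -0.93 to 0.72). Tyms, thymidylate synthase, overlapped at 15.3 and 17.8 CPM against 12.7, 14.1 and 17.3 CPM (-0.17 ± 0.31). Tk1, the thymidine kinase of S phase, did not overlap, at 35.2 and 27.3 CPM against 25.4, 23.1 and 21.4 CPM (-0.42 ± 0.24). Adjusted p ranged from 0.346 for Tk1 to 0.956 for Rrm1. The interval for Rrm1 reaches past 0.5 on the log2 scale on both sides, and so does not show equal levels.

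Among the G2/M genes, 11 of 24 were higher and 13 lower by the sign of the log2 fold change, with a median of -0.11. The survivin and Aurora A genes had log2 fold changes of opposite sign. Birc5, which encodes survivin, the subunit that brings Aurora B to centromeres (NCBI gene 11799), stood at 63.2 and 53.0 CPM without curcumol. In the curcumol libraries it was at 26.9, 34.7 and 32.5 CPM, below both untreated values. That is a 1.85-fold lower level (log2 fold change -0.89 ± 0.21, 95% interval -1.40 to -0.38, adjusted p = 0.0720 in edgeR, 0.00297 in DESeq2). Aurka, the kinase of spindle poles (NCBI gene 20878), was at 4.82 and 7.19 CPM without and 16.1, 17.2 and 11.0 CPM with curcumol, 2.46-fold higher and without overlap (1.30 ± 0.43, 95% interval 0.25 to 2.34, adjusted p = 0.126, and 0.0234 in DESeq2). Aurkb, the kinase that works with survivin, was lower without overlap but by little, at 32.5 and 31.1 CPM against 22.6, 30.6 and 19.2 CPM (adjusted p = 0.443). Plk1, which acts at centrosomes and kinetochores, overlapped at 16.1 and 26.0 CPM against 14.7 to 18.7 CPM.

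None of the mitotic cyclin genes nor Cdk1 passed the test, and differences between them were not tested. Ccnb2, a B-type cyclin, stood at 50.3 and 52.3 CPM without curcumol and at 22.9, 44.6 and 32.7 CPM with it, all lower (-0.62 ± 0.30, adjusted p = 0.268). Ccnb1 was at 61.5 and 29.1 CPM against 30.4, 38.9 and 22.6 CPM, so untreated replicate 2 sat inside the curcumol range (-0.56 ± 0.38, adjusted p = 0.436). Cdk1, the kinase that both cyclins activate, overlapped, at 23.0 and 24.5 CPM against 24.4, 27.3 and 20.9 CPM (0.026 ± 0.25, 95% interval -0.57 to 0.62). Ccna2, the cyclin of S and G2 phase, stood at 22.6 and 11.6 CPM against 21.3, 30.7 and 16.6 CPM.

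Spindle and midzone proteins with a positive difference included Prc1, which bundles midzone microtubules, at 10.7 and 11.5 CPM against 16.1, 29.4 and 12.5 CPM (0.80 ± 0.44, adjusted p = 0.327). Those groups did not overlap, although curcumol replicate 3 lay only just above untreated replicate 2. Kif23, a midzone motor, was at 9.81 and 10.2 CPM against 16.1, 21.9 and 8.13 CPM. Kif11, the motor that pushes spindle poles apart, overlapped at 9.58 and 8.21 CPM against 6.07, 13.04 and 5.004 CPM. Stmn1, a microtubule-destabilising protein and the most abundant member of the class, was at 156 and 140.3 CPM without curcumol and at 99.99, 139.7 and 114 CPM with it, where the replicates numbered 2 of both groups nearly met (-0.33 ± 0.19, adjusted p = 0.354). For Tpx2, an activator of Aurora A, the untreated libraries stood at 37.9 and 10.2 CPM and enclosed the curcumol values of 12.8 to 21.1 CPM.

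At the centromere, Cenpe, a kinetochore motor (NCBI gene 229841), stood at 20.7 and 12.7 CPM without and 8.03, 10.4 and 6.25 CPM with curcumol. It was lower in all 3 libraries, 2.03-fold in the fit (-1.02 ± 0.42, adjusted p = 0.202). Cenpa, the centromeric histone, overlapped at 29.3 and 29.0 CPM against 23.1 to 29.7 CPM, and Cenpf at 9.88 and 5.22 CPM against 4.42 to 9.83 CPM. Genes of the spindle checkpoint and its ubiquitin ligase all overlapped between groups. Bub1b stood at 14.5 and 3.02 CPM against 13.3 to 30.1 CPM, Bub1 at 4.11 and 6.04 against 3.71 to 6.43 CPM, Cdc20 at 28.2 and 14.8 against 21.5 to 24.6 CPM, and Ube2c at 24.5 and 15.8 against 13.8 to 21.8 CPM. Neither of the common proliferation markers passed the test: Mki67, which coats mitotic chromosomes, was at 26.3 and 30.3 CPM against 13.5, 25.6 and 20.1 CPM, without overlap, and Top2a, the topoisomerase that untangles chromosomes, at 10.5 and 15.9 CPM against 13.1, 32.3 and 14.3 CPM. Adjusted p was 0.394 and 0.536.

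**Figure D2:**
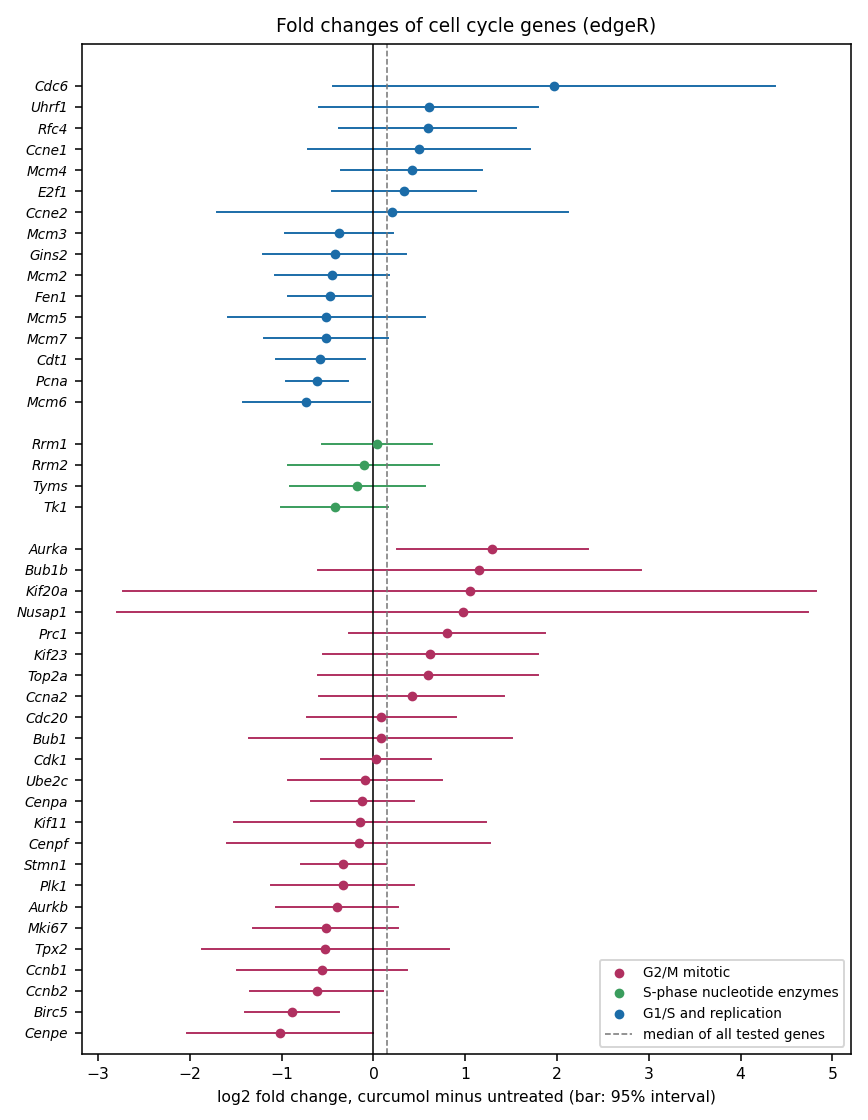
Log2 fold change (curcumol minus untreated) of the 44 genes with 95% intervals, grouped by phase, with the median of all 14508 tested genes (0.15) as a dashed line. Intervals hold 0 for 37 of the 44, and the widest belong to Kif20a and Nusap1.

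Libraries of a group often differed more from each other than the groups did. For 22 of 44 genes the 2 untreated libraries were further apart than the fitted group difference, and for 31 the range of the 3 curcumol libraries was wider than it. A more than 2-fold gap between the untreated libraries was seen for 8 genes. The extreme cases were Nusap1, a spindle microtubule protein, with 457 counts in untreated replicate 1 and 1 count in replicate 2, and Kif20a, a cytokinesis motor, with 191 counts and 1 count. Those are ratios of 453 (exact interval 80.9 to 17921) and 189 (33.6 to 7512), where the intervals cover counting error only. In the curcumol libraries neither gene was near 0, at 9.30 to 12.6 CPM for Nusap1 and 3.29 to 7.18 CPM for Kif20a. Exons of Cdc23 on the opposite strand overlap 29.3% of those of Kif20a.

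The 3 curcumol libraries were ordered alike across most of the list. Curcumol replicate 2 held the highest value of its group for 22 of 24 G2/M genes, 11 of 16 G1/S genes and 2 of 4 nucleotide enzymes, where it was the highest for 35.3% of all tested genes. It was the lowest of the 3 for none of the 44. Replicate 3 was the lowest for 34 of 44, against 33.7% of all tested genes. Kif23 was one that followed both, at 21.9 CPM in replicate 2, 16.1 CPM in replicate 1 and 8.13 CPM in replicate 3. Summed over the G2/M genes, the level was 682 and 548 CPM without curcumol and 482, 677 and 460.2 CPM with it, so curcumol replicate 2 was level with untreated replicate 1. G1/S genes summed to 907 and 749.7 CPM without and 657, 716 and 509.6 CPM with curcumol, below both untreated libraries in all 3. Without Pcna, a sum added after seeing the data, they came to 719 and 568 CPM against 531, 596 and 393 CPM, so curcumol replicate 2 then lay above untreated replicate 2. The ratio of the G1/S to the G2/M sum was 1.33 and 1.37 without and 1.36, 1.06 and 1.11 with curcumol. Without Stmn1, which makes up much of the G2/M sum, it was 1.72 and 1.84 against 1.72, 1.33 and 1.47. Beside this, replicate 2 had the lowest sums of the curcumol libraries for neutrophil and precursor (1459 CPM), B cell (69.6 CPM) and erythroid genes (10.9 CPM). It had the highest T and NK sum (150 CPM) and the highest endothelial sum (109 CPM). For macrophage gate, fibroblast, cardiomyocyte and dendritic cell genes its sum lay between those of replicates 1 and 3. The part of these other cells in the order of the libraries was not tested.

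**Figure D3:**
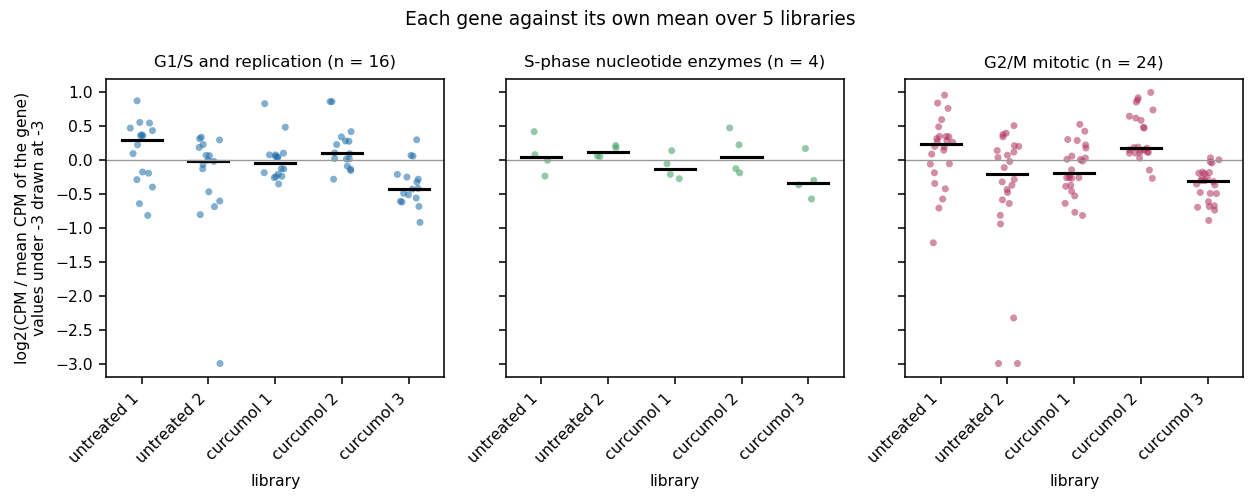
Each gene's CPM relative to its own mean over the 5 libraries (log2), by library and phase, with a bar at the median. The G2/M panel shows 22 of 24 genes above their mean in curcumol replicate 2 and 1 of 24 in replicate 3, while the G1/S panel is highest in untreated replicate 1.

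Direction went with abundance. At a mean of at least 20 CPM, a limit chosen after seeing the data, 17 of 23 listed genes were lower with curcumol (median -0.42), and under it 13 of 21 were higher (median 0.49). All tested genes split in the same direction, but less at the upper level. There 3286 of 5831 were lower (median -0.069), and under 20 CPM 5737 of 8677 were higher (median 0.54). Group values did not overlap for 17 of the 44, where 44.4% of all tested genes did not. Of these 13 were lower (29.5% of members, with 14.9% of all genes) and 4 higher, Aurka, Cdc6, Prc1 and Rfc4 (9.09%, with 29.5% of all genes). At 20 CPM or more, 11 of 23 were lower without overlap and none higher, where all genes at that level showed 24.6% and 17% (993 of 5831). Under 20 CPM, 2 of 21 were lower and 4 higher without overlap, where all genes at that level showed 8.34% and 37.9%. The part of abundance in the direction of single genes was not tested. The untreated libraries detected fewer genes, as given above.

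**Figure D4:**
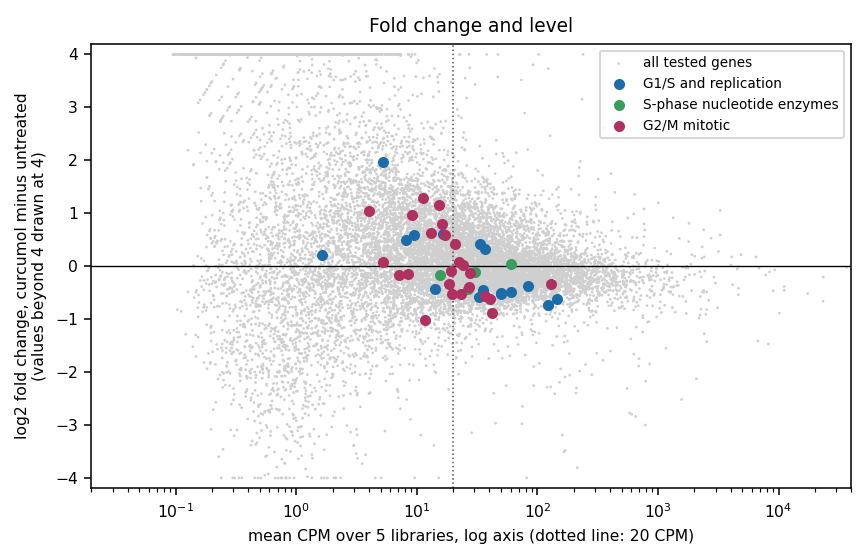
Log2 fold change against mean CPM (log axis) for all tested genes in grey and the listed genes in colour by phase. Right of the dotted line at 20 CPM most coloured points are below 0 (17 of 23), and left of it most are above (13 of 21).

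Per kilobase of transcript (longest coding transcript in GENCODE M21), Stmn1 and Pcna stood apart, at 140 and 122 CPM per kb without and 111 and 79.6 CPM per kb with curcumol. Mcm6 (37.1), Ccnb2 (33.5), Mcm3 (32.0) and Fen1 (30.6) followed without curcumol, and with it the same 4 lay between 21.8 and 24.7 CPM per kb. The lowest without curcumol were Cdc6 at 0.418 and Ccne2 at 0.4998 CPM per kb. Mki67, with a transcript of 10061 bases, had 2.82 CPM per kb, so its level per length was under that of Cdk1 (5.44). RefSeq lists processed or related copies of Pcna, Tyms, Ccnb1, Ccnb2 and Stmn1, with which reads may be shared. The deposited table holds 1 of them, Ccnb1-ps, with 3 to 10 counts per library. Exons on the opposite strand also overlap part of Ube2c (22.8%), Ccne2 (17.4%), Rfc4 (12.7%), Ccna2 (12.5%) and Prc1 (11.1%). Counts of these genes, like those of Fen1, Gins2 and Kif20a, are uncertain where counting ignored strand.

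Among 94 other cell cycle genes, of which 93 were tested, none passed the adjusted threshold in edgeR, 51 lay above and 42 below 0 on the log2 scale, and the median was 0.06. At an unadjusted p under 0.05, 9 were higher (9.68%) and 13 lower (14.0%), where 18.1% and 6.51% of all tested genes were. DESeq2 called 7 higher and 9 lower, 17.2% of these genes beside 16.2% of all genes. Most of the genes in both higher counts passed the filter on low counts only through the curcumol libraries, among them Orc1, Pole, Kif4 and Kif18b. The higher shares are therefore not read as a result about these genes. Of the CDK inhibitors, Cdkn1a, which encodes p21 and halts the cycle in G1, stood at 532 and 612 CPM without and 257, 232 and 270 CPM with curcumol (-1.18 ± 0.15, adjusted p = 0.0523 in edgeR and 1.54e-12 in DESeq2). Its 3 curcumol values were all under every untreated one. Cdkn2d and Cdkn2b, inhibitors of Cdk4 and Cdk6, had adjusted p of 0.652 and 0.683. Of 14 G1 cyclins, kinases, pocket proteins and E2Fs, Ccnd3 was at 100.1 and 84.8 CPM against 111 to 167 CPM, Cdk6 at 37.5 and 54.0 against 57.4 to 91.3 CPM, and Cdk4, the other way, at 142 and 167 against 104 to 120 CPM (adjusted p from 0.143 to 0.152).

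Of 30 other replication genes 14 were positive and 16 negative (median -0.24). Orc1, a subunit of the origin recognition complex, was at 0 in both untreated libraries and at 1.14 ± 0.156 CPM with curcumol (SD, n = 3). That mean is 14.8-fold a floor of 3 counts in 1 untreated library (0.0767 CPM). The ratio allows for counting error only and is not a lower bound on the group difference. The untreated libraries themselves gave 457 counts and 1 count for Nusap1. Pole, the catalytic subunit of the leading-strand polymerase, had 0 counts and 1 count in the untreated libraries and 2.33 to 3.07 CPM with curcumol.

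Of 43 other mitotic genes 25 were positive and 18 negative (median 0.42). Mybl2, the B-Myb factor that joins the MuvB complex in late S phase, stood at 21.8 and 27.1 CPM without and 7.19, 8.02 and 5.03 CPM with curcumol (-1.86 ± 0.36, adjusted p = 0.0651). The mitotic motors Kif18b and Kif4 had no count in either untreated library. With curcumol they were at 5.63 ± 1.31 and 3.85 ± 1.43 CPM (SD, n = 3). Those means are 73.4-fold and 50.2-fold the floor used for Orc1, with the same limit. Like Orc1 and Pole, they passed the filter on low counts only through the curcumol libraries, so no test is given for these 4. An untreated library listing a gene at 0 was common, at 25.1% of all tested genes.

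Single libraries decided calls on the list. Without untreated replicate 1, edgeR called 5 of the 44 (18.7% of all tested genes, 14.8% higher and 3.96% lower), namely Cdc6, E2f1, Bub1b, Kif20a and Nusap1, all higher with curcumol and all lower in untreated replicate 2 than in replicate 1. Without untreated replicate 2 it called 6 others (22.5% of all tested genes, 18.1% higher and 4.44% lower): Mcm5, Ccnb1, Birc5, Cenpe and Tpx2 were lower with curcumol and highest in untreated replicate 1, and Aurka was higher. No gene was called in both fits. In each the lone untreated library is assumed to vary like the curcumol ones. Kif20a and Nusap1 each had 1 count in untreated replicate 2. Without untreated replicate 1 they passed the filter on low counts only through the curcumol libraries. Their calls are therefore not read as results about these genes. The G1/S median was -0.016 without untreated replicate 1, and lay between -0.45 and -0.26 when any other library was left out. The G2/M median turned to 0.17 without untreated replicate 1 and to 0.093 without curcumol replicate 3. It also turned with total counts as the scaling (0.082), which moved the median of all genes from 0.15 to 0.34, as did that of the nucleotide enzymes (0.050), while the G1/S median stayed negative (-0.21).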

How the data were processed

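RNA from CD45+CD64+ cells of infarcted mouse hearts was sequenced in 2 untreated and 3 curcumol samples, grouped and numbered by their titles. The authors deposited raw counts per gene. Per the submitters' processing notes fastp, HISAT2, HTSeq and Bowtie2 were used; the genome build is not given in the sources used here, nor the annotation or strand setting. The labels and the design text name different library kits. All p-values measure the spread between these samples, which may be technical.

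Counts were fitted over all genes in edgeR 4.0.16 (R 4.3.3): filterByExpr (minimum count 10), TMM factors, a quasi-likelihood test with group as the only term, two-sided, with Benjamini-Hochberg adjustment over 14508 tested genes and a threshold of 0.05. CPM use the effective library sizes. SEs come from the fold change and F statistic. With 2 samples against 3, no exact permutation p can reach 0.05, so none was computed. Every pair of libraries differed by more than sampling noise (chi-square per gene 92.1 or more). The untreated libraries correlated with each other at 0.909 (log2 CPM), below every correlation of an untreated with a curcumol library (0.911 to 0.925). The curcumol libraries correlated with each other at 0.973 to 0.977. Scripts were tested on simulated data with less spread between replicates than these data and with larger changes than any listed gene showed. That test checks the code and does not measure its power for these genes. DESeq2 1.42.0, limma-voom (limma 3.58.1), other scalings and filters, a replicate block and leaving out each sample were the alternatives. Members and lists were chosen with earlier results of these data known. Values per sample were given for the 6 members with the smallest p and the 4 most abundant of the G1/S and G2/M classes and all nucleotide enzymes, and for further members where their libraries showed the spread. Of other cell cycle genes the 3 with the smallest p in each group were named, except 1 gene that is not reported here. Promoter windows are from RefSeq.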

Additional observations from a re-analysis of the deposited data

How the results depend on the processing

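No listed gene was called in any alternative except DESeq2 (4), limma-voom (2) and the fits without 1 sample (0 to 6). The count over all genes was 30. It was 10 with total counts, 2346 with DESeq2, 1661 with limma-voom, 8 with library weights, 416 with no filter on low counts, 98 with a CPM of at least 1 in 2 samples, and 0 to 3531 without 1 sample. Of the other cell cycle genes, 0 passed as reported, 16 with DESeq2, 9 with limma-voom, 3 with no filter, 2 with the CPM filter and 0 to 31 without 1 sample.

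The replicate block gave 45 calls over all genes, 0 on the list, a G2/M median of 0.11 and a log2 fold change of 0.061 for Rrm2. Titles share only a number, and deviations of same-numbered samples correlated at 0.038 and -0.0076 across genes, so the numbers were not taken to pair them. Class medians without 1 sample ranged from -0.45 to -0.016 (G1/S), -0.28 to -0.051 (nucleotide enzymes) and -0.19 to 0.17 (G2/M). With total counts they were 0.050 for the nucleotide enzymes and 0.082 for G2/M genes.

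Of 30 genes followed across the alternatives 5 turned sign in some alternative, none of them past the threshold as reported. Total counts turned Rrm2 (0.084) and Tyms (0.016). Leaving out 1 sample turned Ccnb1 (-0.98 to 0.080), Rrm1 (-0.15 to 0.28) and Rrm2 (-0.45 to 0.10). Cdkn2b turned with limma-voom (1.69, and 1.72 with library weights), the replicate block (1.61) and without untreated replicate 2, with -2.50 to 7.95 when 1 sample was left out. It had no count in untreated replicate 1. The cause was not tested. Precision was lower for members under 20 CPM, whose untreated libraries differed by a median of 1.51-fold, against 1.19-fold at 20 CPM or more.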
